A study of Homo sapiens with 12 samples.

Results

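The 7 genes of the JUN and FOS families, JUN, JUNB, JUND, FOS, FOSB, FOSL1 and FOSL2, were followed in newly made and total RNA of 22Rv1 cells. They were taken as the coding-transcript rows that carry these gene names, and reads in overlapping intervals of a gene were counted once. All 7 had at least 1 read, among 18650 coding genes in the files. 22Rv1 is a human prostate cancer cell line, and all 12 libraries came from cells whose SF3B1 gene was edited to encode serine in place of a cysteine (C1111S). SF3B1 is the splicing factor that holds the intron branch site in the U2 particle. Cells received the solvent DMSO (0.1% v/v), the stereoprobe WX-02-23 (20 µM), the stereoprobe WX-02-43 (20 µM) or PladB (10 nM), with 3 libraries in each group. The compounds were applied for 3 h. PladB is pladienolide B, a natural product that binds SF3B1 and blocks splicing. Each group was then given 4-thiouridine (100 µM, 1 h), a uridine analogue that is built into RNA made during that time and is read as C in place of T after alkylation. Reads that carry at least 1 of these changes are termed T>C reads, and the labelled share is the percentage of a gene's reads that are T>C reads. Every group carried the edit, so no library of unedited cells enters these comparisons, and the labels do not say whether the edited cells were 1 clone. The 4 comparisons set each compound against DMSO and the stereoprobes against each other.

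JUN and FOS proteins are basic leucine zipper transcription factors that pair with each other to form AP-1, which binds the TRE and CRE motifs and drives growth, stress and invasion programmes. JUN proteins can pair among themselves, whereas FOS proteins need a partner of another family. FOS, FOSB, JUN and JUNB are textbook immediate early genes, switched on within minutes by kinase cascades, and their mRNAs are destroyed quickly, in part through AU-rich elements in the 3′ untranslated region. JUN, JUNB and JUND have no intron, and the FOS genes have several, so that only the latter need the splicing machinery.

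The promoters and the decay elements below belong to JUN, JUNB, JUND and FOS, the 4 genes with enough reads for the results below, and are shown because new and total RNA of these genes are compared there. The promoter windows run from 250 bases before to 50 after the RefSeq transcription start (build GRCh38.p14, 5′ to 3′ on the gene's strand). RefSeq windows were matched for 6 of the 7 genes. Capitals mark TGACATCA (the JUN type of TRE), TGACGTCA (the CRE, bound by CREB and ATF factors), CCAAT and TATAAA.
JUN (chr1:58783998-58784297, minus strand): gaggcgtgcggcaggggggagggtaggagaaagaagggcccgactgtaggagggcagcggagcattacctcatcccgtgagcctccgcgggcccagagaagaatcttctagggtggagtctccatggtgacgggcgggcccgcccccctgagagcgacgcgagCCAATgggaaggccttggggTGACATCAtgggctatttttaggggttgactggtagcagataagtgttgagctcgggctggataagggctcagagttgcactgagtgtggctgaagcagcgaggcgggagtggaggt
JUNB (chr19:12791236-12791535, plus strand): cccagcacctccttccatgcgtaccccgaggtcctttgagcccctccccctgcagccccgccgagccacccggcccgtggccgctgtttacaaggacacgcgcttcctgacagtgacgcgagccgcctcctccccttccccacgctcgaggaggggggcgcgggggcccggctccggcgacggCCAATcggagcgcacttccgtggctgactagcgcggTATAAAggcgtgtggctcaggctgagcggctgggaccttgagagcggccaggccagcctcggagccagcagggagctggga
JUND (chr19:18281573-18281872, minus strand): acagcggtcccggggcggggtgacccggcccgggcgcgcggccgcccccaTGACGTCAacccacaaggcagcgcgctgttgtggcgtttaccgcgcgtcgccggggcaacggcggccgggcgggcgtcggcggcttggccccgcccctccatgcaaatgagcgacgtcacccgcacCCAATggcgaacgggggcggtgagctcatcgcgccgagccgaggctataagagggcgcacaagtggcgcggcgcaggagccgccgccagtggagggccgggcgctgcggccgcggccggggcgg
FOS (chr14:75278578-75278877, plus strand): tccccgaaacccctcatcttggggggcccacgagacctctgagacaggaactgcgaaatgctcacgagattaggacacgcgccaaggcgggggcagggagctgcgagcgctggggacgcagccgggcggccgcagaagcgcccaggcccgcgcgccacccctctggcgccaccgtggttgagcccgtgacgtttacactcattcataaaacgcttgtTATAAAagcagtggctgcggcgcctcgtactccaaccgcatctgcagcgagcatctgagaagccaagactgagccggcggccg
The JUN window held TGACATCA with its first base at −67 and CCAAT at −87. JUND held TGACGTCA at −200 and CCAAT at −74, JUNB had CCAAT at −67 and TATAAA at −31, and FOS had TATAAA at −33. Searched on both strands over 27305 promoter windows of this length, TGACATCA was in 2.71%, TGACGTCA in 1.98%, TATAAA in 11.95% and CCAAT in 35.7%. Of the other genes, FOSB held TGACGTAA at −60 (0.48% of windows) and TATAAA at −30, and FOSL2 held TGACTCA, a TRE, at 5 (this motif or its complement was in 4.92% of windows). These are letter matches and do not show that a factor was bound.

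The 3′ untranslated regions were compared for ATTTA, the core of the AU-rich element, in GENCODE release 29 transcripts of build GRCh38. A stretch of 30 bases that ends in ATTTA is given for JUN and for FOS, with ATTTA in capitals.
JUN: tgtttctgaaaattccagaaaggatATTTA
FOS: aaacgttttattgtgtttttaATTTATTTA
In FOS the 2 ATTTA copies overlap by a base. The FOS region held 5 ATTTA copies in 806 bases, and 7.66% of 2101 regions within 20% of its length held at least as many. The JUN region held 3 copies in 1287 bases and JUNB 2 in 500, which 43.2% and 23.3% of regions of similar length matched or exceeded. FOSB held 3 in 2166 bases. The annotated regions of JUND, FOSL1 and FOSL2 differed in length from the intervals counted in the files and were not compared.

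The reads were counted over 3′ untranslated intervals of build hg19. These were chr1:59246463-59247746 (minus strand) for JUN, chr19:12903630-12904125 (plus) for JUNB and chr19:18390504-18391250 (minus) for JUND. FOS was counted over chr14:75748128-75748937 (plus), FOSB over chr19:45976271-45978437 (plus), FOSL2 over chr2:28635316-28637516 (plus) and FOSL1 over chr11:65659607-65660759 (minus). Over the 12 libraries JUND had 53783 reads, JUN 44121, JUNB 13738, FOS 2061, FOSL2 825, FOSB 594 and FOSL1 18. At most 1.58% of a gene's reads mapped to more than 1 place. Library totals ran from 24670716 to 42190854 reads and coding T>C reads from 826774 to 2094424. The labelled share over all coding reads was 9.45% ± 0.43 (SD, n = 3) in DMSO, 9.64% ± 0.22 with WX-02-23, 9.10% ± 0.28 with WX-02-43 and 5.44% ± 0.19 with PladB. Of the markers checked, all 10 luminal prostate markers had reads. Their summed level was 3143 to 3373 CPM (reads scaled to library size) in DMSO, 3657 to 3856 CPM with PladB, and lower than DMSO with WX-02-23 (2480 to 2815 CPM) and WX-02-43 (2658 to 2815 CPM). The summed basal, endothelial and immune markers reached at most 0.896 CPM in any library. The 4 fibroblast markers summed to 4.28 to 7.21 CPM in DMSO, 6.63 to 10.99 CPM with WX-02-23, 5.43 to 7.39 CPM with WX-02-43 and 8.07 to 11.6 CPM with PladB. Of these, COL1A1 had reads in every library, COL1A2 was at 0 in all 12 and COL3A1 in 9. DCN was at 0 in 4 libraries and reached 5.53 CPM. The part of these marker differences in the results was not tested. In bulk RNA, fewer cells with a transcript and less of it per cell cannot be told apart.

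In DMSO cells, the labelled share set JUN, JUNB and FOS apart from the typical gene. In the DMSO libraries, 69.9%, 76.6% and 69.4% of JUN reads were T>C reads in replicates 1, 2 and 3. JUNB, a JUN relative that can act as a weaker activator, had 76.5%, 57.6% and 67.6%. JUND, the family member that is made steadily rather than on stimulation, had 25.6%, 18.4% and 29.1%. FOS, the founding FOS gene, had 18 T>C reads of 18, 178 of 178 and 82 of 113, so that every FOS read was labelled in 2 of the 3 libraries. JUN and JUNB overlapped each other, FOS had the highest mean and JUND lay below the other 3 genes in every DMSO library. Over 10007 genes with a mean of at least 100 reads per DMSO library, the median labelled share was 9.23%. The pooled DMSO share of JUN (71.8%) was above 99.6% of these genes, that of JUNB (67.8%) above 99.3%, that of JUND (23.7%) above 87.0% and that of FOS (90.0%) above 99.97%. The order of the 4 genes by DMSO share, FOS, JUN, JUNB, JUND, held for the pooled reads of WX-02-23 and WX-02-43 as well. With PladB, JUN (62.5%) came before FOS (56.1%). The share also depends on how many T positions a read covers, and it was not corrected for this. The percentage of covered T positions converted in DMSO replicates 1, 2 and 3 was 22.5%, 7.12% and 3.42% in FOS. In JUN it was 5.91%, 6.03% and 6.34%, so FOS lay below JUN in replicate 3. The part of repeated copies of 1 molecule in the FOS share was not tested.

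JUN, the transcriptional activator that gives the family its name, was the gene of the family with the largest number of called changes. Its T>C reads were 976, 1182 and 1095 CPM in the DMSO libraries, scaled to the T>C reads of all coding genes, and 1607, 1578 and 1431 CPM with WX-02-23. They were 1952, 2004 and 2180 CPM with WX-02-43 and 3178, 3810 and 4399 CPM with PladB. No 2 groups overlapped on this scale, and the order DMSO, WX-02-23, WX-02-43, PladB held for every library. In CPM of all library reads, WX-02-43 and PladB overlapped, at 95.3, 94.1 and 107 against 78.9, 91.2 and 101. Relative to DMSO, JUN T>C reads were higher by 1.81 on the log2 scale with PladB (SE 0.13, adjusted p = 1.40e-13, edgeR quasi-likelihood test, Benjamini-Hochberg over 10722 genes). With WX-02-43 the change was 0.92 (SE 0.13, adjusted p = 4.41e-05), and with WX-02-23 it was 0.50 (SE 0.13, adjusted p = 0.113), which did not pass the threshold of 0.05. DESeq2 called the WX-02-23 change (adjusted p = 0.00481), as did edgeR with no filter on low counts (adjusted p = 0.0464). These 3 comparisons share the DMSO libraries.

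All JUN reads, which include RNA made before the label, stood in the order DMSO, WX-02-23, WX-02-43, PladB. They were 136, 141 and 151 CPM with DMSO, 210, 206 and 183 CPM with WX-02-23, 237, 218 and 252 CPM with WX-02-43 and 304, 312 and 370 CPM with PladB. Every treated library lay above every DMSO library. The log2 change was 1.20 with PladB (SE 0.11, adjusted p = 8.06e-11, edgeR), 0.72 with WX-02-43 (SE 0.11, adjusted p = 1.48e-04) and 0.48 with WX-02-23 (SE 0.11, adjusted p = 0.0229). The WX-02-23 call did not survive leaving out DMSO replicate 1 (adjusted p = 0.0917), WX-02-23 replicate 1 (0.125) or WX-02-23 replicate 2 (0.121), or fitting only these 2 groups (0.0997). JUN reads without a T>C change also stood higher after PladB: 22.3, 17.6 and 24.4 CPM of all library reads in DMSO against 55.3, 44.5 and 60.4 with PladB. JUN T>C reads on the same scale were 55.0 ± 2.87 (SD, n = 3) in DMSO and 76.7 ± 4.83 with WX-02-23. They were 98.9 ± 7.38 with WX-02-43 and 90.4 ± 11.2 with PladB, so the PladB mean lay below that of WX-02-43 there.

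**Figure D1:**
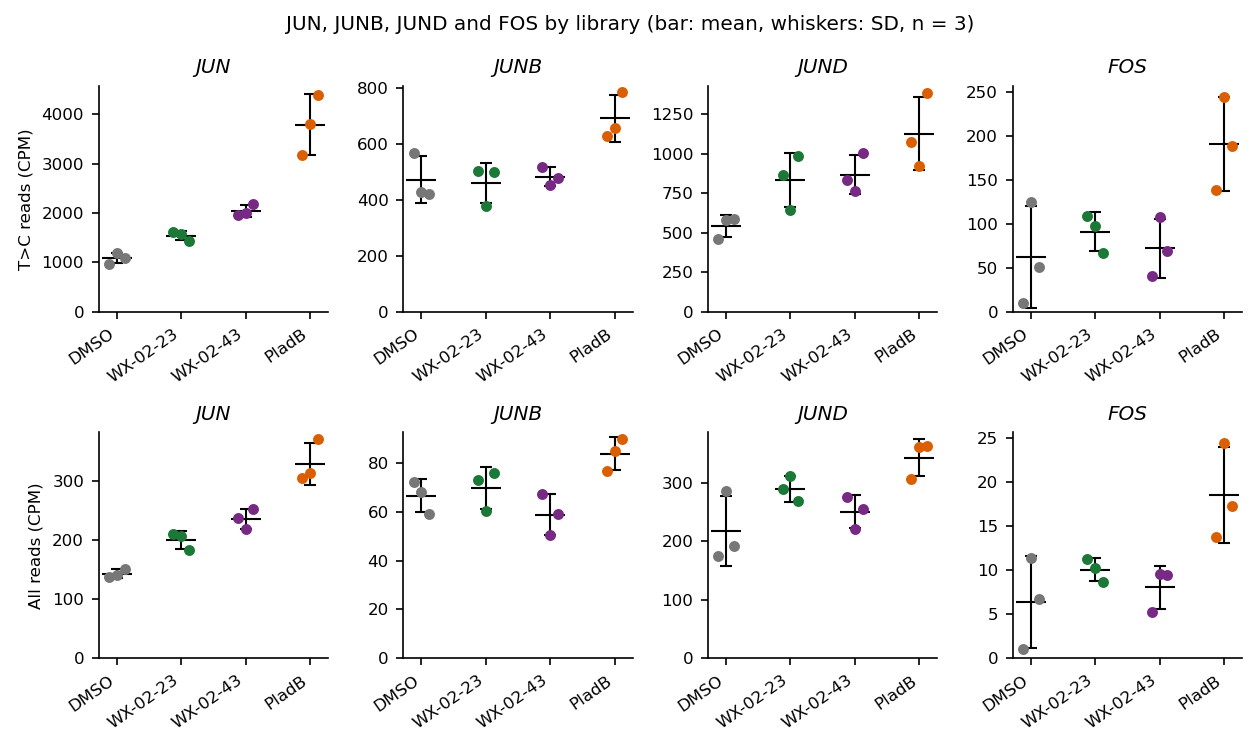
T>C reads (top, CPM of T>C reads) and all reads (bottom, CPM) of JUN, JUNB, JUND and FOS in each library of the 4 groups, with mean (bar) and SD (whiskers) of 3 libraries and a separate linear axis from 0 for each panel. JUN rises from 976 to 1182 CPM of T>C reads in DMSO to 3178 to 4399 CPM with PladB with no overlap between groups, and the 3 DMSO points of FOS spread from 10.4 to 125 CPM.

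JUND T>C reads were also called higher after PladB, and those of JUNB were not called. JUND T>C reads were 459, 577 and 584 CPM in DMSO, 866, 645 and 988 CPM with WX-02-23, 831, 763 and 1002 CPM with WX-02-43 and 1077, 924 and 1382 CPM with PladB. Scaled in this way to T>C reads, each treated group lay above DMSO, and the 3 treated groups overlapped one another. The log2 change with PladB was 1.06 (SE 0.19, adjusted p = 1.24e-04, edgeR), and the 0.63 with WX-02-23 (adjusted p = 0.354) and 0.68 with WX-02-43 (adjusted p = 0.323) did not pass. DESeq2 called both (adjusted p = 0.0263 and 0.0183). All JUND reads were 175, 287 and 192 CPM in DMSO and 307, 361 and 363 CPM with PladB, a log2 change of 0.66 (SE 0.13, adjusted p = 9.35e-05). DMSO replicate 2 stood nearer the treated libraries than the other DMSO libraries did. All JUND reads were 289, 313 and 269 CPM with WX-02-23 (log2 change 0.41, adjusted p = 0.170) and 276, 221 and 256 CPM with WX-02-43 (0.20, adjusted p = 0.955). The WX-02-23 change was called without DMSO replicate 2 (0.66, adjusted p = 6.78e-04) and with no filter on low counts (0.41, adjusted p = 0.0254).

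JUNB T>C reads were 567, 429 and 419 CPM in DMSO, 502, 378 and 498 CPM with WX-02-23, 518, 451 and 478 CPM with WX-02-43 and 629, 656 and 786 CPM with PladB. Scaled in this way to T>C reads, the first 3 groups overlapped and all 3 PladB libraries lay above them. The JUNB log2 change with PladB was 0.55 (SE 0.21, adjusted p = 0.0850, edgeR) in T>C reads and 0.33 (SE 0.16, adjusted p = 0.127) in all reads, neither past the threshold, and DESeq2 called the change in T>C reads (adjusted p = 0.0405). Its changes with the stereoprobes lay between −0.18 and 0.07 in both measures. All JUNB reads were 72.4, 68.2 and 59.3 CPM in DMSO and 76.6, 84.7 and 90.0 CPM with PladB, again without overlap.

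FOS had few reads and a wide spread in DMSO. Its T>C reads were 10.4, 125 and 51.1 CPM in DMSO, 109, 97.8 and 66.5 CPM with WX-02-23, 40.0, 107 and 68.5 CPM with WX-02-43 and 138, 245 and 188 CPM with PladB. Scaled in this way to T>C reads, every PladB library lay above every DMSO library, and both stereoprobe groups fell inside the DMSO range. The log2 change with PladB was 1.62 in T>C reads (SE 0.57, adjusted p = 0.0634, edgeR) and 1.54 in all reads (SE 0.50, adjusted p = 0.0169), so only the latter passed. The call in all reads did not survive leaving out DMSO replicate 1 (log2 1.02, adjusted p = 0.112) or PladB replicate 2 (1.28, adjusted p = 0.0697). In T>C reads the change passed without DMSO replicate 2 (2.63, adjusted p = 0.00817) or PladB replicate 1 (1.81, adjusted p = 0.0468), with DESeq2 (adjusted p = 0.0493) and with no filter (adjusted p = 0.0239). FOS reads without a T>C change were 0, 0 and 31 in the DMSO libraries and 108, 149 and 102 with PladB.

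**Figure D2:**
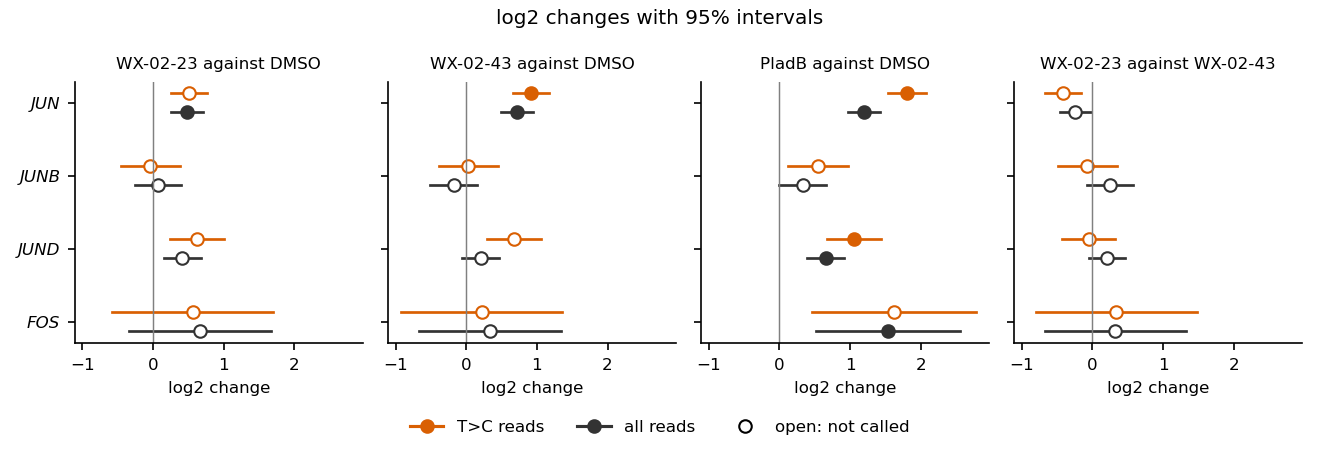
Log2 changes in T>C reads (orange) and all reads (black) of JUN, JUNB, JUND and FOS in the 4 comparisons, with 95% intervals from the fit over all genes. Filled points passed an adjusted p of 0.05, as JUN in T>C reads with WX-02-43 (0.92) and PladB (1.81), and open points did not.

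Counted over the family, T>C reads of 2 genes were called with PladB, JUN and JUND, both higher, where 4.72% of tested genes were called higher and 10.6% in either direction. With WX-02-43 edgeR called JUN alone, against 0.0933% of genes. DESeq2 called JUN and JUND, among 46 of the 3237 genes to which it gave an adjusted p. With WX-02-23 edgeR called 0 of the 6 tested genes, against 0.224% of all, while the unadjusted p of 2, JUN and JUND, was under 0.05. DESeq2 called these 2, among 69 of the 2199 genes to which it gave an adjusted p. In all reads JUN, JUND and FOS were called higher with PladB (30.1% of all genes were called, 13.9% higher) and JUN alone with WX-02-23 (0.698% of all genes) and WX-02-43 (0.167%). All of the edgeR counts of family genes rest on 6 tested genes. In T>C reads, scaled to T>C reads, every PladB library lay above every DMSO library for JUN, JUNB, JUND and FOS, as for 10.4% of tested genes. In all reads this held for the same 4 genes, as for 19.1%. Every library lay above DMSO in T>C reads for JUN, JUND and FOSB with WX-02-23 (6.23% of genes) and for JUN and JUND with WX-02-43 (6.57%). In all reads only JUN did so with WX-02-23 (6.9% of genes) and WX-02-43 (6.25%).

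The direction after PladB depended on the scale for 2 of the 6 tested genes, JUNB and FOSL2, neither of them called by edgeR on either scale. T>C reads of the typical gene were fewer after PladB, so that values scaled to T>C reads are relative to a smaller pool: the median log2 change over all genes was −0.36 on that scale and −1.15 when T>C reads were scaled to all reads. On the second scale JUN rose by 1.01 (adjusted p = 1.18e-05, edgeR), JUND had 0.26 (adjusted p = 0.346), FOS had 0.85 (adjusted p = 0.320) and JUNB turned to −0.26 (adjusted p = 0.418). FOSL2 turned from 0.14 to −0.72 (adjusted p = 0.819). The number of genes called higher and lower was 506 and 633 on the first scale and 85 and 1750 on the second. In CPM of all library reads, T>C reads of JUNB were 24.1 ± 5.24 (SD, n = 3) in DMSO and 16.5 ± 1.40 with PladB, and those of JUND 27.4 ± 2.68 and 26.9 ± 4.84. There every JUNB library was lower with PladB (15.6, 15.7 and 18.1) than in DMSO (30.2, 20.9 and 21.3). The FOS libraries overlapped, at 3.42, 5.86 and 4.33 with PladB and 0.55, 6.07 and 2.59 in DMSO. Those of JUND overlapped as well. JUN thus stood above DMSO on both scales and above the median gene on both.

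The labelled share of JUN, JUNB and FOS was lower in every PladB library than in any DMSO library, and no change passed the test. In JUN it was 58.8%, 67.2% and 62.6% with PladB, and in JUNB 46.1%, 42.7% and 46.0%. In FOS it was 56.3%, 55.1% and 57.1% against 72.6% to 100% in DMSO, and in JUND 19.7%, 14.1% and 20.0%, which overlapped DMSO. As 34.2% of all genes had every PladB library below every DMSO library, this position was common. The log2 change in labelled odds was −0.60 in JUN (95% interval −1.21 to −0.00098, adjusted p = 0.175, edgeR), −1.36 in JUNB (−2.43 to −0.29, adjusted p = 0.0962) and −0.55 in JUND (−1.30 to 0.19, adjusted p = 0.312). In FOS it was −4.78 (−9.78 to 0.22, adjusted p = 0.196), and it was −2.64 without DMSO replicate 2 and −9.12 without DMSO replicate 3. The median gene changed by −1.30. No family gene was called by edgeR, with 2 (JUN and JUNB) at an unadjusted p under 0.05, beside 11.1% of all genes called. With 3 libraries against 3, the exact two-sided permutation test over libraries cannot go below p = 0.1, which JUN, JUNB and FOS reached with PladB.

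With the stereoprobes the labelled share passed no test. JUN had 73.3%, 70.9% and 75.4% with WX-02-23, inside the DMSO spread, and 77.8%, 80.8% and 76.6% with WX-02-43, above every DMSO library, a position that 4.98% of genes showed. JUNB had 65.6%, 58.2% and 63.1% with WX-02-23 and 72.6%, 78.6% and 71.9% with WX-02-43, and both overlapped DMSO. In JUND the shares were 28.6%, 19.1% and 35.4% with WX-02-23 and 28.4%, 30.4% and 34.7% with WX-02-43. The edgeR test called 0 family genes in either comparison, with 0 at an unadjusted p under 0.05, beside 0.00933% and 0% of all genes. The conversions per T>C read also differed by group: in JUN they were 2.25 ± 0.17 (SD, n = 3) in DMSO, 2.50 ± 0.12 with WX-02-23, 2.73 ± 0.10 with WX-02-43 and 1.80 ± 0.13 with PladB. The share of T positions in JUN reads that were converted was 6.10% ± 0.22 in DMSO, 7.14% ± 0.34 with WX-02-23, 8.63% ± 0.024 with WX-02-43 and 4.06% ± 0.10 with PladB. In JUND it was 1.67% ± 0.53 in DMSO, 3.36% ± 0.13 with WX-02-43 and 1.07% ± 0.27 with PladB. Over all coding reads the conversion rate moved in the same order, from 0.71% ± 0.024 in DMSO to 0.81% ± 0.016 with WX-02-23, 0.91% ± 0.036 with WX-02-43 and 0.32% ± 0.0090 with PladB. The part of this in the labelled shares was not tested.

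**Figure D3:**
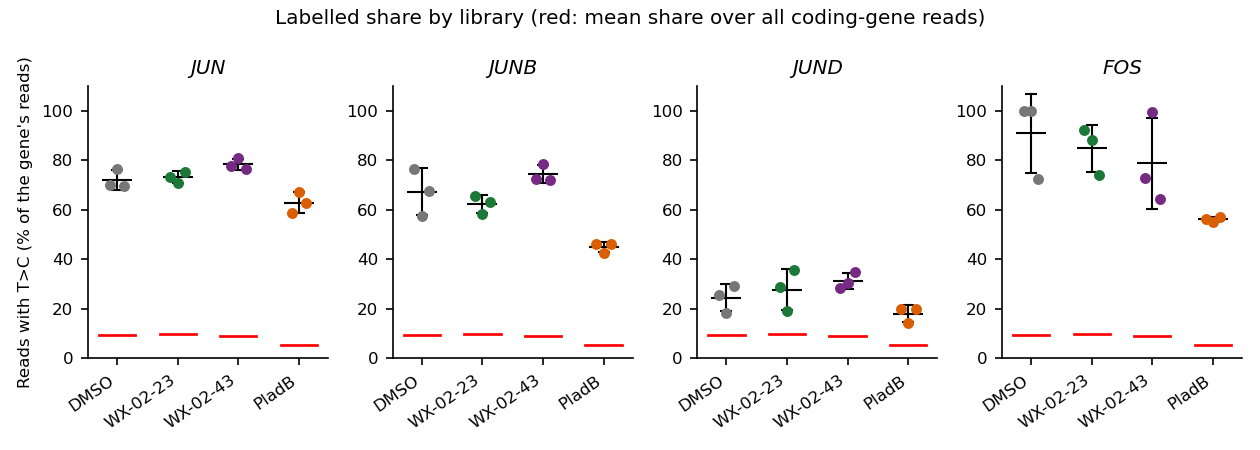
Labelled share (T>C reads as a percentage of the gene's reads) of JUN, JUNB, JUND and FOS in each library, with mean (bar) and SD (whiskers) of 3 libraries, and the mean share over all coding-gene reads in red. All 4 genes sit above the red line in every group, and the PladB points of JUN, JUNB and FOS sit below the DMSO points.

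The stereoprobes were compared directly, at the same dose and time. JUN T>C reads were lower with WX-02-23 than with WX-02-43 in every library, by a log2 difference of −0.41 (95% interval −0.67 to −0.15). The unadjusted p was 0.00244 and the adjusted p was 1 (edgeR), while DESeq2 gave an adjusted p of 0.0387. In all reads the JUN difference was −0.24 (−0.46 to −0.02, adjusted p = 0.866). The difference in T>C reads was −0.07 (−0.49 to 0.35) for JUNB, −0.05 (−0.43 to 0.32) for JUND and 0.34 (−0.80 to 1.47) for FOS, so that the interval of FOS includes changes of over 2-fold. With edgeR 0 of 6 genes were called in T>C reads (0.0466% of all genes) and 0 in all reads (0.152%), with 1, JUN, at an unadjusted p under 0.05 in each. DESeq2 called 1, JUN, in T>C reads, among 28 of the 952 genes to which it gave an adjusted p. In the labelled share edgeR called 0 of 6, 0 at an unadjusted p under 0.05, and 0% of all genes, although the WX-02-23 libraries lay below the WX-02-43 libraries in JUN and JUNB, as in 4.38% of genes. JUN lay below in T>C reads as 5.35% of genes did and in all reads as 6.51% did.

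The intronless JUN genes and the spliced FOS overlapped in their changes after PladB. GENCODE 29 gave exon numbers for 98.8% of the coding genes: JUN, JUNB and JUND have 1 exon, FOSB has 3, and FOS, FOSL1 and FOSL2 have 4. After PladB the median log2 change in T>C reads was 0.79 over 216 single-exon genes (quartiles 0.12 and 1.29), of which 25% were called higher, and −0.39 over 10468 genes with more exons, of which 4.30% were called higher. These values are scaled to T>C reads, where the median over all genes was −0.36. Scaled to all reads that median was −1.15, and medians by exon number were not taken on that scale. JUNB (0.55) lay below the median of single-exon genes, JUND (1.06) above it and JUN (1.81) above the upper quartile. FOS, with 3 introns, had a change of 1.62, above 94.7% of all tested genes and with a wide interval (0.46 to 2.78). It was not called (adjusted p = 0.0634, edgeR). The sparse FOSB and FOSL2 had −0.73 (95% interval −5.46 to 4.01) and 0.14 (−3.43 to 3.70). Both values lay below each JUN gene, with intervals wider than that of FOS. In all reads the median change was 0.35 over 269 single-exon genes and −0.07 over 12844 others. With WX-02-23 and WX-02-43 the single-exon medians in T>C reads were 0.17 and 0.12, and those of the other genes were close to 0.

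**Figure D4:**
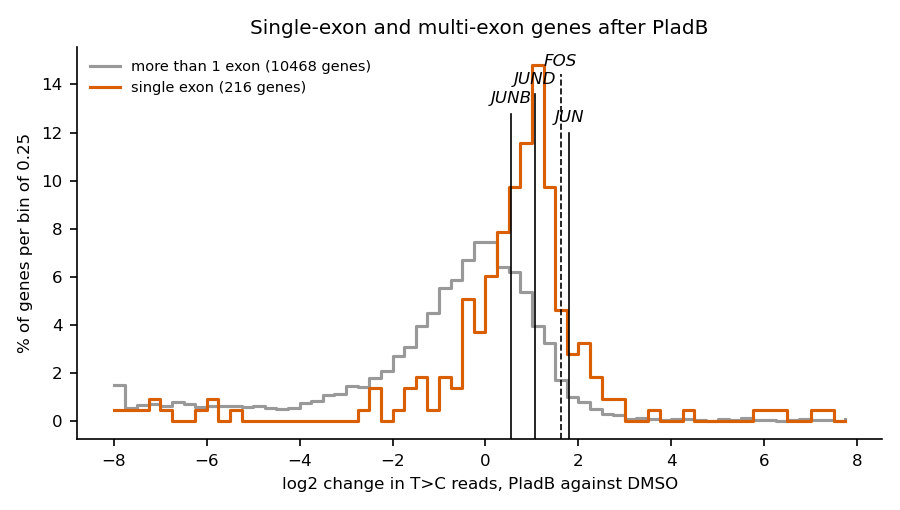
Distribution of the log2 change in T>C reads after PladB over 216 single-exon genes (orange) and 10468 genes with more than 1 exon (grey), as a percentage of each set per bin, with genes beyond the axis placed in its end bins. Vertical lines mark JUNB (0.55), JUND (1.06), JUN (1.81) and, dashed, the intron-containing FOS (1.62). All values are scaled to T>C reads, a pool that was smaller after PladB.

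FOSB, FOSL2 and FOSL1 were too sparse for a firm value. FOSB, an activator close to FOS, had 74, 9 and 56 reads in DMSO, of which 0, 0 and 11 were T>C reads, and 52, 38 and 46 reads with WX-02-23, of which 19, 32 and 32 were. It had 5, 21 and 5 T>C reads of 57, 21 and 5 with WX-02-43 and 0, 0 and 3 of 56, 45 and 135 with PladB. Every WX-02-23 library thus had more FOSB T>C reads than any DMSO library, as 6.23% of tested genes showed on the CPM scale, and the test did not call it (adjusted p = 1, edgeR). PladB replicate 3 held most of the FOSB reads of that group.

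FOSL2, also called FRA2, a FOS relative that lacks the strong activation domain, had 0, 1 and 59 T>C reads in DMSO, 78, 0 and 69 with WX-02-23, 15, 23 and 36 with WX-02-43 and 0, 0 and 30 with PladB. Libraries of 1 group ranged from none to most of its reads labelled, as in DMSO with 0 of 25, 1 of 40 and 59 of 76 reads. No FOSB or FOSL2 change was called in any comparison or refit. The reads carry no molecular identifiers, and the part of repeated copies of 1 molecule in these swings was not tested.

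FOSL1, also called FRA1 and known from invasive tumours, had 0 reads in the 6 DMSO and WX-02-23 libraries. It had 12 reads in WX-02-43 replicate 2, and 1 and 5 in PladB replicates 1 and 3. None was a T>C read. A count of 0 allows up to 3 reads in a library, or 0.0711 to 0.122 CPM of all library reads in these 6 libraries, counting error only. FOSL1 did not enter the tests.

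**Figure D5:**
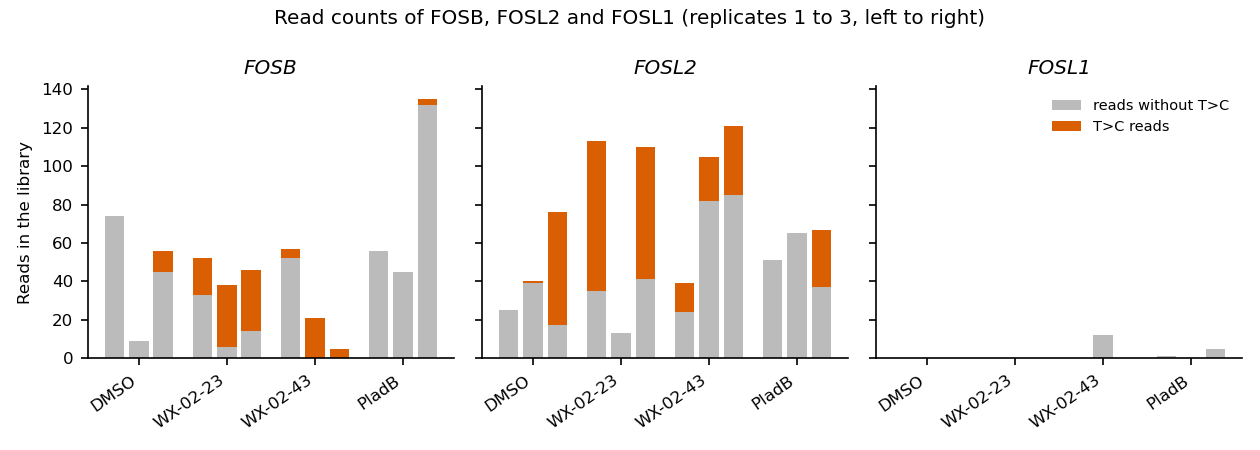
Read counts of FOSB, FOSL2 and FOSL1 in each library (replicates 1 to 3 from left to right within a group), split into T>C reads (orange) and other reads (grey). FOSB has 19 to 32 T>C reads in each WX-02-23 library against 0 to 11 in DMSO, and FOSL1 has at most 12 reads in any library.

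Genes of the pathway were counted from lists chosen around AP-1, with CREB1 and ATF2 in both the partner and the promoter factor lists. With PladB 10.6% of all genes were called in T>C reads and 30.1% in all reads. By direction, 506 of 10722 genes rose and 633 fell in T>C reads, and 1829 of 13178 rose and 2143 fell in all reads. Of 23 tested partner genes with a leucine zipper, 4 fell in T>C reads with PladB and 0 rose (median −0.29, all genes −0.36). CREB1, which binds CREs, fell by 4.23 in T>C reads (adjusted p = 5.99e-07, edgeR), and CEBPG fell by 0.93 (adjusted p = 0.0141). With WX-02-23, 3 of 25 partners rose in all reads, ATF3, ATF4 and DDIT3, and 0 fell, against 0.698% of all genes called. ATF3 and ATF4 are named here after their values were seen. In T>C reads 0 of 23 partners were called with WX-02-23, and ATF3 was 1 of the 4 that fell with PladB. DDIT3, a stress-induced partner, was higher in all reads by 1.31 with PladB (adjusted p = 3.04e-09) and by 0.60 with WX-02-23 (adjusted p = 0.0260). DDIT3 T>C reads were called with neither, at 0.14 with PladB (adjusted p = 0.813, edgeR) and 0.01 with WX-02-23. With PladB they had −0.65 when scaled to all reads (adjusted p = 0.0712, edgeR). In all reads 8 of 25 partners fell and 3 rose with PladB (median −0.23, all genes −0.07). JDP2, an AP-1 repressor, fell by 1.72 in all reads (adjusted p = 1.75e-05). MAFG fell by 0.94 and CREB5 fell by 3.81 in all reads. T>C reads of MAFG and CREB5 were not called with PladB (adjusted p = 0.711 and 0.389, edgeR).

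Of 34 tested kinases upstream of AP-1, 3 fell and 0 rose in T>C reads with PladB (median −0.96). Over all 10722 genes 633 fell and 506 rose (median −0.36). MAP2K7, which activates the JNK kinases, fell by 1.92 (adjusted p = 0.0479, edgeR) and MAP3K2 fell by 2.63 (adjusted p = 0.00384). In all reads 11 of 35 fell and 1 rose, MAPK3, an ERK kinase, by 0.79 (adjusted p = 0.00107). MAPK14, the p38 kinase, fell by 1.53, MAP3K4 fell by 1.49 and MAP3K5 fell by 1.20 in all reads. Their T>C reads were not called (adjusted p = 0.949, 0.112 and 0.452, edgeR). The median in all reads was −0.14, and over all 13178 genes 2143 fell and 1829 rose (median −0.07).

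Of 19 tested factors that act on the promoters of these genes, 5 fell and 0 rose in T>C reads with PladB (median −1.49), and in all reads 13 of 20 fell and 2 rose (median −1.12). Over all genes 633 of 10722 fell in T>C reads and 2143 of 13178 in all reads. SRF, which drives FOS through the serum response element, fell by 1.54 in T>C reads (adjusted p = 0.0278, edgeR) and fell by 1.58 in all reads (adjusted p = 8.20e-08). CRTC3, a CREB coactivator, fell by 2.14 in all reads, from 24.3 ± 8.59 CPM (SD, n = 3) in DMSO to 5.53 ± 1.02 CPM. MKL2, an SRF partner also called MRTFB, had no T>C reads in the PladB libraries and 65.9 ± 52.5 CPM in DMSO. The mediator subunit MED23 fell by 2.04 (adjusted p = 8.93e-06) and MED1 fell by 0.79 (adjusted p = 5.91e-05) in all reads. T>C reads of MED23 and MED1 were not called (adjusted p = 0.642 and 0.127, edgeR). In the same libraries JUN and JUND were called higher when scaled to T>C reads. When scaled to all reads JUN was called and JUND was not (0.26, adjusted p = 0.346, edgeR). The part of these factors in the JUN and JUND changes was not tested.

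Among AP-1 target genes, 3 of 18 tested fell and 0 rose in T>C reads with PladB (median −0.76), where 633 of all 10722 genes fell. CCND1, the G1 cyclin D1, fell by 1.71 (adjusted p = 6.70e-18, edgeR), VEGFA fell by 1.99 (adjusted p = 2.34e-05) and EZR fell by 2.18 (adjusted p = 0.00535). In all reads 2 rose, TIMP1 by 0.62 and GADD45B by 1.37, and 2 of 25 fell (median 0.37, all genes −0.07). Their T>C reads were not called, at −2.09 for TIMP1 (adjusted p = 0.296, edgeR) and 0.89 for GADD45B (adjusted p = 0.111). EZR was not called in all reads (−0.05, adjusted p = 0.788). HMOX1, the heme oxygenase that NRF2 also induces, was the called target with the stereoprobes: all reads were 0.86 ± 0.85 CPM (SD, n = 3) in DMSO, 33.5 ± 3.10 CPM with WX-02-23 (adjusted p = 2.27e-07) and 7.70 ± 3.05 CPM with WX-02-43 (adjusted p = 0.00245). Its T>C reads were called with WX-02-23 (log2 change 4.89, adjusted p = 0.0270, edgeR) and not with WX-02-43 (2.84, adjusted p = 0.860).

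The count for regulators of the JUN and FOS proteins and mRNAs depended on the scale. Of 34 tested, 5 rose and 0 fell in T>C reads with PladB (median −0.07) when scaled to T>C reads, whereas 1 rose and 11 fell when scaled to all reads (median −0.86). In all reads 9 of 35 rose and 3 fell (median 0.09). TRIB1, which helps the COP1 ligase act on its substrates, rose by 1.34 in T>C reads (adjusted p = 6.58e-07, edgeR) and by 0.55 on the second scale (adjusted p = 0.0290). On the first scale HNRNPD, an AU-rich element binder, rose by 1.13 (adjusted p = 7.10e-04). PPP2CA, a phosphatase subunit, rose by 1.01 (adjusted p = 9.55e-04) and DUSP6, an ERK phosphatase, rose by 0.76 (adjusted p = 0.0235), but on the second scale these 3 had 0.32, 0.22 and −0.04 and were not called. KHSRP, which directs decay of AU-rich mRNAs, rose by 0.42 in all reads (adjusted p = 2.95e-04), and PABPC1, the poly(A) binding protein, rose by 0.46 (adjusted p = 2.13e-06), while on the second scale their T>C reads fell by 0.97 and fell by 1.11. On the second scale 85 of all 10722 genes rose in T>C reads and 1750 fell. For the other lists 0 genes rose on that scale. There 6 of 23 partners, 7 of 34 kinases, 10 of 19 promoter factors and 4 of 18 targets fell.

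Across the 12 libraries, JUN and JUND had the highest likeness of the 6 pairs among JUN, JUNB, JUND and FOS, with Pearson r = 0.84 of log2(T>C CPM + 1). JUN and JUNB had r = 0.73, JUN and FOS 0.70, and JUNB and FOS 0.25. The libraries share their treatment groups, so these values describe the 12 points only. Of 4232 genes with a mean of at least 50 T>C CPM, the most like JUN were HSP90AB1 (r = 0.94), TXN2 (0.93) and CBWD5 (0.93), a gene with near-identical copies. Those most like JUNB were DYNLT1 (0.93), RNF26 (0.92) and CREBZF (0.91). HSP90AB1 (0.89), FEM1A (0.86) and PSMG1 (0.86) were most like JUND, and FBXO33 (0.91), PTP4A1 (0.88) and RBM18 (0.86) most like FOS.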

How the data were processed

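SLAM-seq, which marks newly made RNA with 4-thiouridine, was read in 12 libraries (3 for each of DMSO, WX-02-23, WX-02-43 and PladB) by sequencing 3′ ends. Per the file headers, slamdunk 0.4.3 counted reads and T>C reads over 3′ untranslated intervals; per the submitters' processing notes the genome build was hg19, and the aligner's settings are not given in the sources used here. The authors deposited raw read counts, T>C read counts and CPM for each interval, and the fraction of T positions read as C. Tests used the counts alone. The deposited CPM gave the library totals.

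Of 29255 intervals, 23086 belonged to coding transcripts, and a gene's overlapping intervals were counted once. Counts of 18650 genes were fitted with edgeR 4.0.16 (quasi-likelihood, TMM scaling, its default filter on low counts, 12 libraries in 1 fit), in R 4.3.3. Of these, 10722 genes were tested in T>C reads, 13178 in all reads and 10720 in labelled share, the last with an intercept per library and a labelled-odds term per group. Calls were made at an adjusted p of 0.05. CPM in the report were rescaled with TMM factors, except those given as CPM of all library reads.

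The members, gene lists and tests were chosen with earlier results of these data known. All members are named. From each list, genes called in any comparison are named, up to 6 by smallest adjusted p, and from all genes the 3 most like each member with a mean of at least 50 T>C CPM. Nothing in the labels states that replicates came from separate cultures, and p-values then measure the spread between these libraries, which may be technical. The fits were tested on simulated data. DESeq2 1.42.0, other scalings and filters, left-out libraries and a replicate block were tried as alternatives. Background T>C reads, from errors or variants, were not subtracted, since unlabelled libraries were not analysed here.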

Additional observations from a re-analysis of the deposited data

Results flagged for a closer look

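Reads appeared in a row that the comparisons did not use: the noncoding transcript of FOSL1, whose interval spans the gene and holds the coding interval. It had 0 reads in the DMSO libraries, 14 over the WX-02-23 libraries and 12 over the WX-02-43 libraries. All 14 were T>C reads and came from WX-02-23 replicate 3. All 12 came from WX-02-43 replicate 2, which had the same number of FOSL1 reads in the coding interval. The PladB libraries had 6 in all, and none was a T>C read.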

How the results depend on the processing

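The direction and the side of the threshold held for JUN with PladB and WX-02-43 in T>C reads and all reads under every alternative run. DESeq2 in place of edgeR called 2 family genes with WX-02-23, 2 with WX-02-43, 4 with PladB and 1 between the stereoprobes in T>C reads. Over all genes it called 69 of 2199, 46 of 3237, 1985 of 10258 and 28 of 952. It thus adjusted over fewer genes than the 10722 of edgeR. Scaling T>C reads to all reads left 1 called with PladB, and JUNB turned to −0.0429 with WX-02-43, −0.26 with PladB and 0.0018 between the stereoprobes, and JUND to 0.0217 between the stereoprobes. With no filter 1 gene was called in T>C reads and 2 in all reads with WX-02-23. In all reads with WX-02-23, fitting only the 2 groups or summing every interval left 0 called, and leaving out single libraries gave 0 to 2.

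Leaving out single libraries turned several changes that were not called. In T>C reads JUNB ran from −0.12 to 0.12 with WX-02-23, from −0.0464 to 0.19 with WX-02-43 and from −0.14 to 0.0520 between the stereoprobes. JUND ran from −0.19 to 0.10 between the stereoprobes and FOS from −0.28 to 1.23 with WX-02-43. In all reads JUNB ran from −0.0101 to 0.16 with WX-02-23 and FOS from −0.18 to 1.05 with WX-02-43. In labelled odds JUN ran from −0.0104 to 0.25 and JUND from −0.0446 to 0.56 with WX-02-23, and JUND from −0.55 to 0.0569 between the stereoprobes. FOSB had another sign in 5 of 98 refits and FOSL2 in 9 of 99, none called.

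Over all genes, the number called in T>C reads (24 with WX-02-23, 10 with WX-02-43, 1139 with PladB, 5 between the stereoprobes) was 69, 46, 1985 and 28 with DESeq2, and with PladB 1835 when scaled to all reads and 493 when only 2 groups were fitted. In all reads (92, 22, 3972 and 20) it was 146, 40 and 38 with DESeq2 and 140, 36 and 33 with no filter for the comparisons other than PladB. With WX-02-23 it was 56 when only 2 groups were fitted, and summing every interval gave 53, and 12 between the stereoprobes. In T>C reads no filter gave 16 with WX-02-43 and 8 between the stereoprobes, and summing every interval gave 13 with WX-02-23 and 2 between the stereoprobes. In labelled share 1186 genes with PladB became 531, and 1 with WX-02-23 became 0, when only 2 groups were fitted. Measured as conversions over covered T positions in place of reads, the log2 ratio of the JUNB share with WX-02-23 turned from −0.11 to 0.18 and that of FOS between the stereoprobes from 0.11 to −0.0298. Leaving out single libraries gave 12 to 23, 8 to 14, 837 to 1152 and 1 to 3 called genes in T>C reads, 41 to 86, 13 to 29, 3268 to 3653 and 7 to 11 in all reads, and 632 to 1189 with PladB in labelled share. Replicate numbers did not pair the samples: same-numbered libraries had correlations of −0.01 to 0.02 in T>C reads and −0.14 to 0.13 in all reads. With the replicate block 3 family genes were called with PladB in T>C reads, FOS being added (log2 1.90, adjusted p = 0.0178, edgeR), 1 with WX-02-43 and 0 with WX-02-23, and 3, 1 and 1 in all reads. The low read counts of FOS, FOSB, FOSL1 and FOSL2 limit what can be seen of them.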
